A study of Mus musculus with 2 samples.

Results

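The 137 genes described here were chosen by name as those of the enzymes that write, read and erase chemical marks on histones and DNA, and the motor proteins that move nucleosomes. They were taken from the deposited tables by gene symbol: histone deacetylases (Hdac), sirtuins, acetyltransferases (Kat, Ep300, Crebbp), methyltransferases (Kmt2, Setd, Ezh, Ehmt, Suv, Prmt, Dnmt), demethylases (Kdm), Tet enzymes, bromodomain and chromobox proteins, and the Chd, Smarc and Arid families. They make up 137 of the 23793 gene rows. Of these, 3 carry such a name without being one of these proteins: *Dnmt3aos*, *Smarca5-ps* and *Chd3os*. All 137 had an estimate in both libraries, and 124 reached 1 FPKM (sequenced fragments scaled to transcript length and to library size) in the higher library.

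The GFP+ library came from mouse small-intestinal organoid cells in which a green fluorescent protein reporter for chromogranin A (ChgA-GFP) was on, and the GFP- library from the cells of the same cultures that the sort did not collect as GFP+. Chromogranin A marks enteroendocrine cells, among them the serotonin-producing enterochromaffin cells. The organoids were grown from crypts of ChgA-GFP mice in Matrigel with epidermal growth factor, noggin and R-spondin, and both fractions share that reporter and medium. The age and number of the mice, and how the reporter was made, are not given in the labels. There is 1 library per fraction, made from polyadenylated RNA with a low-input amplification kit. Nothing below can therefore be set against a spread between replicates, and each difference is a size measured between 2 libraries, without a p-value.

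DNA in the nucleus is wrapped around histones. Acetyl groups on histone tails go with open, transcribed chromatin and are removed by deacetylases. Methyl groups on certain lysines go with active genes (H3K4, H3K36) and on others with silent ones (H3K9, H3K27). In the intestinal crypt, dividing stem and progenitor cells give rise to secretory and absorptive cells, and several chromatin genes, such as *Dnmt1* and *Ezh2*, are known to be abundant in dividing cells.

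The sorted identity showed in the markers. Of 13 enteroendocrine markers, 11 could be compared, and all 11 were 4-fold higher or more in GFP+, with a summed 6268 FPKM in GFP+ cells and 205 FPKM in GFP- cells, while *Chga* and *Chgb* have no estimate in GFP+. One of the 11, *Pax6*, was at 0.786 FPKM in GFP- cells and was let in by its GFP+ level, which fixes its sign. Cell-cycle genes were mostly lower, 15 of 20 past the 4-fold size as deposited, 5 with the median log2 ratio of well-expressed genes set to 0, 4 with both libraries at one total and 7 relative to genes of like length (summed 457 FPKM in GFP+ cells and 2240 FPKM in GFP- cells). *Mki67*, at 3.55 FPKM in GFP+ cells and 3.18 FPKM in GFP- cells, was the 1 cell-cycle gene above 0 in log2 difference. The 4 stem cell markers summed to 342 FPKM in GFP+ cells and 1366 FPKM in GFP- cells, and the 6 Paneth markers to 814 FPKM in GFP+ cells and 13191 FPKM in GFP- cells. Each of the 6 Paneth markers was 4-fold lower as deposited, and 5 were in each of the other measures just named, all but *Mmp7*. The shares of all genes 4-fold lower were 4.59% as deposited and 1.55%, 1.12% and 1.54% in those measures, in the same order. Goblet, tuft and enterocyte markers were mixed in direction, with sums of 1290, 4.77 and 1253 FPKM in GFP+ cells and 3079, 15.1 and 3174 FPKM in GFP- cells. The 6 non-epithelial markers summed to 253 FPKM in GFP+ cells and 5.72 FPKM in GFP- cells, of which *Vim* gave 237 FPKM in GFP+ cells and 4.90 FPKM in GFP- cells. The endothelial *Pecam1* was at 10.4 FPKM in GFP+ cells and 0.187 FPKM in GFP- cells, the macrophage gene *Cd68* at 2.71 FPKM in GFP+ cells and 0.595 FPKM in GFP- cells. The collagens *Col1a1* and *Col3a1* were at 1.56 and 1.61 FPKM in GFP+ cells and at 0.0106 and 0.00593 FPKM in GFP- cells. All 5 of the markers that reached 1 FPKM were 2-fold higher or more, against 20.1% of all genes as deposited. Of the 5, all but *Vim* were below 1 FPKM in GFP- cells, so they were let in by their GFP+ level, which fixes their sign. *Ptprc*, the leukocyte antigen, was at 0.0224 FPKM in each library, and none of the 6 was listed at 0. The part that these differences in cell make-up have in the results below was not tested, and fewer cells of a type cannot be told apart from less RNA per cell.

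The chromatin genes were expressed at middling levels in both libraries. Their median was 11.3 FPKM in GFP+ cells and 9.33 FPKM in GFP- cells, and their summed FPKM was 0.510% of the total in GFP+ and 0.387% in GFP-. Of the 10 members with the highest FPKM, 7 were the same in both libraries. In GFP+ the highest were *Hdac2* (68.9 FPKM), *Hdac3* (62.5 FPKM) and *Smarcd2* (60.1 FPKM), and in GFP- they were *Smarcd2* (177 FPKM), *Hdac3* (133 FPKM) and *Prmt1* (133 FPKM). The range was narrower at the top in GFP+, where no member passed 70 FPKM, against 6 that passed 100 FPKM in GFP- cells.

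**Figure D1:**
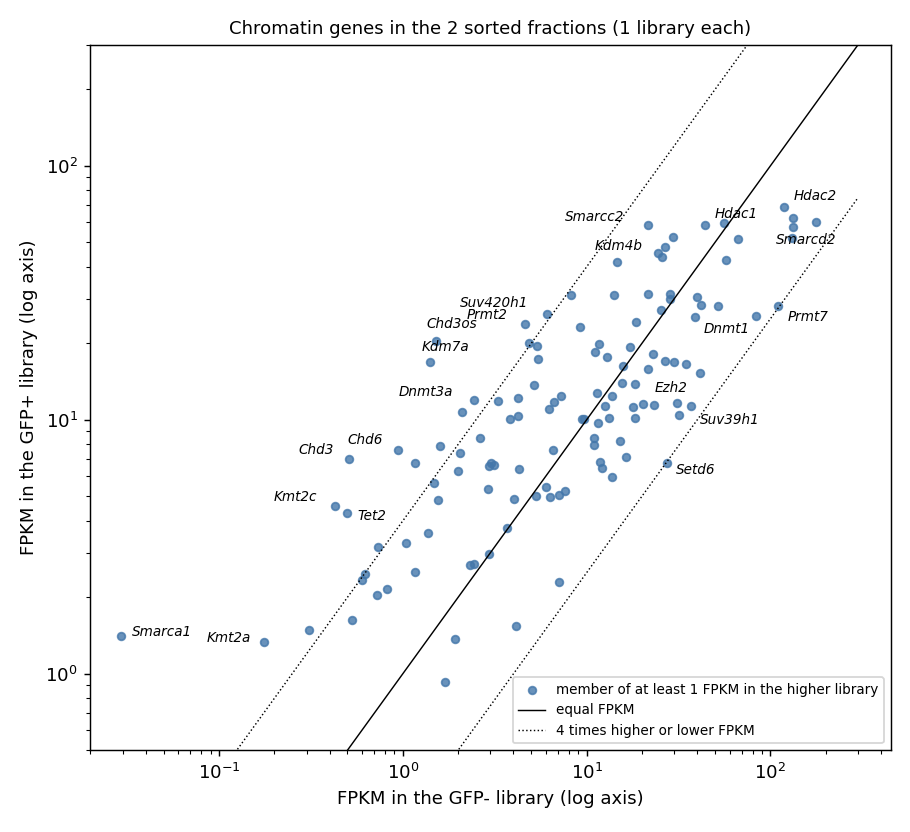
Each dot is 1 of the 124 chromatin genes that reached 1 FPKM in either library, with its FPKM in GFP+ cells on the vertical and in GFP- on the horizontal log axis. Dots above the solid line are higher in GFP+. The genes of low FPKM in GFP- cells (left) lie mostly above the line. Those of high FPKM in GFP- cells (right) lie mostly below it. The 13 genes below 1 FPKM in GFP- cells alone were let in by their GFP+ level, which puts them above the line. Sorting dots by their GFP- value, which is part of the difference, also tilts them this way by construction. No trend with level is therefore read from the plot.

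Differences are given as log2((FPKM + 1) in GFP+ / (FPKM + 1) in GFP-), which understates the change of genes of low level. On this scale 5 of the 124 genes were at least 4-fold higher in GFP+, where 7.09% of all 11868 genes tested were, and 0 were at least 4-fold lower, where 4.59% of all genes were. At the 2-fold size, 35 members were higher (20.1% of all genes) and 16 were lower (23.1% of all genes). In all, 75 of 124 were above 0, against 46.2% of all genes, and the median difference was 0.17, against -0.12 for all genes. As deposited, few of these genes were among the large differences between the fractions, and modest differences in both directions were the rule. Neither statement carries over to the other scalings given next. The deposited lower confidence bound was 0 for each of the 137 genes in both libraries, so that the bounds overlapped for every one of them.

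Scaling matters for the direction of small differences. Over the 5563 genes at 10 FPKM or more on both sides, the median log2 ratio was -0.50. With that median set to 0, 16 members were 4-fold higher and 0 lower (11.1% and 1.55% of all genes), and 93 of 124 were above 0, against 60.1% of all genes. At the 2-fold size 55 members were 2-fold higher and 6 lower (30.3% and 12.8% of all genes), and the median was 0.64 for members and 0.33 for all genes. With both libraries brought to one total, 20 were 4-fold higher and 0 lower (12.2% and 1.12% of all genes), and 96 were above 0, against 63.2%. At the 2-fold size 59 were 2-fold higher and 4 lower (33.4% and 10.7% of all genes), and the medians were 0.75 and 0.44. These are called the median and total scalings below. Under either, members stood above all genes in the median. A change of sign concerned small differences alone: 18 members below 0 as deposited were above 0 with the median ratio set to 0, and 21 with one total, and the lowest of them were at -0.42 and -0.59 (*Dnmt1*) as deposited.

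The differences also followed transcript length. Among the 15 members with transcripts of 1000 to 2000 bases the median difference was -0.81, and the median of all genes of that length was -0.80. For the 36 members of 4000 to 6000 bases the median was 0.69, against 0.42 for all genes of that length. All 23 members longer than 8000 bases were above 0, with a median of 1.20, against 1.01 for all genes of that length. Of those genes, 361 of 443 were above 0. Among the 23, *Kmt2a* to *Kmt2d*, *Chd6*, *Chd9*, *Tet2*, *Crebbp* and *Kat6a* were below 1 FPKM in GFP- cells. They were let in by their GFP+ level, which fixes their sign. Long transcripts thus read higher in GFP+ among chromatin genes and among all genes alike, and chromatin genes are long, with a median transcript of 4402 bases, against 2831 bases for all genes tested. Across the 124 members the log2 length and the difference had a Pearson r of 0.64 and a Spearman rho of 0.69, and across all genes of 0.35 and 0.45. These are descriptions over genes that share the same 2 libraries. With 1 library per fraction, a property of the library that acts on length cannot be told apart from a property of the cells.

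A second measure is therefore given beside the first: the difference minus the running median over the tested genes of like transcript length, with 250 on either side, called the length-relative difference below. By this measure 2 members were 4-fold higher (7.64% of all genes) and 0 were 4-fold lower (1.54%). At the 2-fold size 15 were higher (18.8% of all genes) and 12 lower (14.5%). The median was -0.048 for members, on the other side of 0 from the deposited scale, and 55 of 124 were above 0, against 50.1% of all genes. Of the 35 genes that were 2-fold higher as deposited, 13 were so in both measures, and of the 16 that were 2-fold lower, 10 were. Whatever the size, 53 of the 124 were above 0 and 28 below 0 as deposited, under the median and total scalings and relative to length alike.

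**Figure D2:**
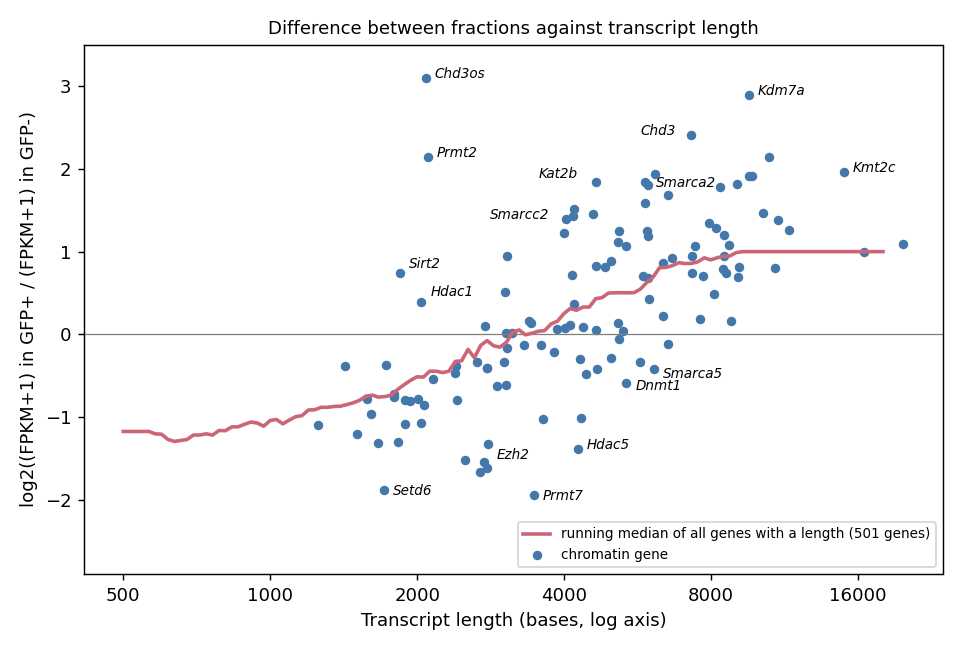
The vertical axis is the log2 difference of GFP+ over GFP- and the horizontal log axis the transcript length in bases. Dots are the 124 chromatin genes and the red line is the running median of all tested genes. The dots climb with the line, and Chd3os, Prmt2 and Kdm7a lie far above it while Prmt7 and Hdac5 lie far below.

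The 5 members past the 4-fold size were *Chd3os*, *Kdm7a*, *Chd3*, *Chd6* and *Prmt2*. *Kdm7a*, which removes methyl groups from H3K9 and H3K27 (chromosome 6, 39118473 to 39206773, mm10, minus strand, as listed), was at 17.0 FPKM in GFP+ cells and 1.41 FPKM in GFP- cells, a ratio of 12. It was above 1 FPKM in both libraries, and its difference of 2.90 was also large for its length, at 1.90. *Chd6*, a remodelling ATPase of the CHD family (chromosome 2, 160946978 to 161109056), was at 7.62 FPKM in GFP+ cells and 0.946 FPKM in GFP- cells, with a difference of 2.15 and a length-relative difference of 1.15. Being below 1 FPKM in GFP- cells, *Chd6* and *Chd3* were let in by their GFP+ level, which fixes their sign. *Prmt2*, an arginine methyltransferase that acts as a coactivator of nuclear receptors (chromosome 10, 76207222 to 76237865), was at 23.8 FPKM in GFP+ cells and 4.61 FPKM in GFP- cells. Its row is joined with the microRNA *Mir678*, so part of the value may belong to that gene. With a transcript of 2100 bases, its difference of 2.15 became 2.65 against genes of like length.

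*Chd3*, an ATPase of the NuRD deacetylase complex, and *Chd3os* are neighbours on chromosome 11. *Chd3* (69343273 to 69369426, minus strand) was at 6.997 FPKM in GFP+ cells and 0.508 FPKM in GFP- cells, a ratio of 13.8 and a difference of 2.41. *Chd3os* (69340769 to 69342647, plus strand) was at 20.4 FPKM in GFP+ cells and 1.51 FPKM in GFP- cells, a ratio of 13.5 and a difference of 3.10. The *Chd3os* row matches the gene now called *Rnf227* and ends 625 bases beyond the annotated 3′ end of *Chd3*, with no overlap of the listed loci. Whether the counting used strand is not stated in the labels or headers. Both neighbours were therefore higher in GFP+ by a like ratio.

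Close behind stood a set of large enzymes. *Kmt2c*, an H3K4 methyltransferase of enhancers, was at 4.58 FPKM in GFP+ cells and 0.430 FPKM in GFP- cells, a ratio of 10.7 that reads as 1.96 on the log2(FPKM + 1) scale. *Suv420h1*, a methyltransferase of H4K20, was at 26.1 FPKM in GFP+ cells and 6.08 FPKM in GFP- cells, a difference of 1.94. *Ep300*, the p300 acetyltransferase, was at 10.7 FPKM in GFP+ cells and 2.11 FPKM in GFP- cells, a difference of 1.92. These 3 lie just outside the 4-fold size on that scale, while their plain ratios of FPKM were 10.7, 4.29 and 5.09. At the other end *Prmt7* had a difference of -1.94 and *Setd6* one of -1.88, the members nearest to the 4-fold size among those lower in GFP+.

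Deacetylases take acetyl groups off histones and silence genes. Of the 4 class I enzymes, 3 were below 0, as were 6382 of all 11868 genes as deposited. *Hdac2* was at 68.9 FPKM in GFP+ cells and 119 FPKM in GFP- cells, and *Hdac3*, the enzyme of the NCoR corepressor complex, at 62.5 FPKM in GFP+ cells and 133 FPKM in GFP- cells, a difference of -1.08. *Hdac8* was at 6.48 FPKM in GFP+ cells and 12.1 FPKM in GFP- cells. *Hdac1* went the other way, at 58.2 FPKM in GFP+ cells and 44.1 FPKM in GFP- cells. *Hdac1* and *Hdac2*, near-identical partners in the same complexes, have transcripts of 2038 and 2005 bases, so length does not separate them. The within-library ratio of *Hdac1* to *Hdac2* was 0.845 in GFP+ and 0.371 in GFP-.

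The class II and IV enzymes were mixed as deposited, with 3 of the 6 that reached 1 FPKM above 0, against 46.2% of all genes. Under the median and total scalings 4 of 6 were above 0 (60.1% and 63.2% of all genes), and relative to length 1 was (50.1%). *Hdac5*, which shuttles between nucleus and cytoplasm on calcium signals, was at 15.3 FPKM in GFP+ cells and 41.5 FPKM in GFP- cells, and its length-relative difference of -1.70 was second only to *Prmt7* among the members below 0. Its row is joined with *Mir8101*. *Hdac6*, the cytoplasmic deacetylase of tubulin, was at 19.9 FPKM in GFP+ cells and 11.7 FPKM in GFP- cells, the highest difference of its class at 0.72. *Hdac10* (10.1 FPKM in GFP+ cells and 18.3 FPKM in GFP- cells) and *Hdac11* (10.2 FPKM in GFP+ cells and 13.2 FPKM in GFP- cells) were lower, *Hdac4* was at 6.39 FPKM in GFP+ cells and 4.26 FPKM in GFP- cells, and *Hdac7* was at 2.71 FPKM in GFP+ cells and 2.43 FPKM in GFP- cells.

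Sirtuins are deacetylases that depend on NAD. Of 7, 6 were below 0 as deposited, as were 6382 of all 11868 genes. Under the median and total scalings and relative to length 5 were below 0, and none was past the 2-fold size as deposited. *Sirt2*, which works in the cytoplasm on tubulin, was the exception, at 43.7 FPKM in GFP+ cells and 25.8 FPKM in GFP- cells. Its difference of 0.74 was 1.39 against genes of like length, since its transcript of 1843 bases lies where most genes read lower in GFP+. *Hdac6* and *Sirt2*, both known to act on tubulin, were thus above 0 as deposited, under the median and total scalings and relative to length. The mitochondrial *Sirt3* was at 11.4 FPKM in GFP+ cells and 23.2 FPKM in GFP- cells, *Sirt5* at 11.6 FPKM in GFP+ cells and 20.3 FPKM in GFP- cells, and *Sirt4* at 6.83 FPKM in GFP+ cells and 11.9 FPKM in GFP- cells. *Sirt1*, a nuclear sirtuin, was the 1 member that reached 1 FPKM in GFP- alone, which fixes its sign, at 0.928 FPKM in GFP+ cells and 1.70 FPKM in GFP- cells.

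Of the 9 acetyltransferases, 6 were above 0 (7 with the total scaling, 3 relative to length), with a median difference of 0.70 that shrank to -0.05 against genes of like length. Of all genes, 46.2% were above 0 as deposited, 63.2% with the total scaling and 50.1% relative to length. *Crebbp* and *Kat6a* were below 1 FPKM in GFP- cells and were let in by their GFP+ level, which fixes their sign. *Kat2b* (PCAF) was at 6.75 FPKM in GFP+ cells and 1.16 FPKM in GFP- cells, a difference of 1.84, and stayed 2-fold higher by the length-relative measure at 1.41. Its relative *Kat2a* (GCN5) was at 17.1 FPKM in GFP+ cells and 26.8 FPKM in GFP- cells. Beside *Ep300*, its sister gene *Crebbp* was at 2.16 FPKM in GFP+ cells and 0.820 FPKM in GFP- cells. The smaller MYST enzymes *Kat5* (28.3 FPKM in GFP+ cells and 41.7 FPKM in GFP- cells) and *Kat8* (16.9 FPKM in GFP+ cells and 29.8 FPKM in GFP- cells) were below 0 as deposited, at -0.54 and -0.79, and near 0 for their length, at -0.05 and -0.03.

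Bromodomain proteins bind acetylated histones. Of 7, 1 passed the 2-fold size: *Brd7*, a subunit of the PBAF remodelling complex, at 16.6 FPKM in GFP+ cells and 34.7 FPKM in GFP- cells, with -1.06 relative to length. It no longer passed that size under the median and total scalings (-0.55 and -0.43), where *Brd2* was 2-fold higher instead (1.31 and 1.43) and 6 of 7 were above 0. *Brd3*, a BET protein, was at 16.3 FPKM in GFP+ cells and 15.8 FPKM in GFP- cells, in a row joined with *Mir7578*. *Brd2* had the highest level of the group in GFP+, at 48.0 FPKM in GFP+ cells and 26.7 FPKM in GFP- cells.

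H3K4 methyltransferases mark promoters and enhancers of active genes. All 6 that reached 1 FPKM were above 0, against 46.2% of all genes, with a median of 1.03. The 2-fold size was passed by 3 (*Kmt2c*, *Kmt2d* and *Setd7*), against 20.1% of all genes. The transcripts of the 6 have a median of 11718 bases, and against genes of like length the median was 0.04, with 3 above and 3 below 0. *Kmt2a*, *Kmt2b*, *Kmt2c* and *Kmt2d* did not reach 1 FPKM in GFP- cells, so the filter let them in by their GFP+ level and fixed their sign. *Kmt2d* was at 2.46 FPKM in GFP+ cells and 0.620 FPKM in GFP- cells, and *Kmt2a* at 1.34 FPKM in GFP+ cells and 0.177 FPKM in GFP- cells. *Setd7* and *Kmt2e* were above 1 FPKM in both, the second at 11.8 FPKM in GFP+ cells and 6.61 FPKM in GFP- cells. *Kmt2e* is grouped here by its name, its own enzyme activity being in doubt.

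The H3K9 methyltransferases of silent chromatin split by gene pair. *Suv39h1*, which marks heterochromatin around centromeres, was at 11.4 FPKM in GFP+ cells and 36.9 FPKM in GFP- cells, a difference of -1.62 and of -1.52 for its length. Its relative *Suv39h2* was at 1.54 FPKM in GFP+ cells and 4.13 FPKM in GFP- cells, a difference of -1.01 and of -1.34 for its length. Under the median and total scalings *Suv39h1* stayed 2-fold lower (-1.15 and -1.04) and *Suv39h2* did not (-0.69 and -0.61). The other 4, which act on euchromatic genes and repeats, lay between 0.02 and 0.68: *Ehmt1* was at 18.4 FPKM in GFP+ cells and 11.1 FPKM in GFP- cells, *Ehmt2* at 27.0 FPKM in GFP+ cells and 25.5 FPKM in GFP- cells, *Setdb1* at 10.0 FPKM in GFP+ cells and 9.63 FPKM in GFP- cells and *Setdb2* at 3.74 FPKM in GFP+ cells and 3.68 FPKM in GFP- cells.

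The readers of H3K9 methylation, the HP1 proteins, included 2 genes that were 2-fold lower as deposited. *Cbx1* was at 7.12 FPKM in GFP+ cells and 16.3 FPKM in GFP- cells, and *Cbx3* at 5.96 FPKM in GFP+ cells and 13.8 FPKM in GFP- cells. *Cbx5* was at 12.7 FPKM in GFP+ cells and 11.3 FPKM in GFP- cells. Against genes of like length the 3 were at -0.20, -0.50 and -0.79, so none passed the 2-fold size.

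Among the writers of H4K20 and H3K36 methylation, *Suv420h1* and *Setd2* were 2-fold higher and the other 2 were below 0 as deposited, though above 0 under the median and total scalings. *Setd2*, which trimethylates H3K36 in transcribed genes, was at 7.88 FPKM in GFP+ cells and 1.59 FPKM in GFP- cells. *Setd8*, which adds the first methyl group to H4K20 and is known from dividing cells, was at 30.5 FPKM in GFP+ cells and 40.1 FPKM in GFP- cells, and *Suv420h2* at 42.7 FPKM in GFP+ cells and 57.1 FPKM in GFP- cells. Of the remaining SET-domain genes, *Setd6*, which methylates the NF-kB subunit RelA, was at 6.74 FPKM in GFP+ cells and 27.4 FPKM in GFP- cells, and *Setd4* was at 2.30 FPKM in GFP+ cells and 7.11 FPKM in GFP- cells. *Setd3*, the histidine methyltransferase of actin, was among the most abundant members in both libraries and differed little, at 59.4 FPKM in GFP+ cells and 55.6 FPKM in GFP- cells. *Setd5* was at 5.44 FPKM in GFP+ cells and 5.98 FPKM in GFP- cells.

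Polycomb repressive complex 2 places methyl groups on H3K27 through *Ezh2* or *Ezh1*. *Ezh2* was at 11.7 FPKM in GFP+ cells and 30.9 FPKM in GFP- cells, a difference of -1.33 and of -1.22 for its length. *Ezh1* was at 24.3 FPKM in GFP+ cells and 18.5 FPKM in GFP- cells. Within the GFP+ library *Ezh1* was the more abundant of the pair, at 2.08 times *Ezh2*, and within GFP- the less abundant, at 0.601 times. The shared subunit *Eed* was at 28.0 FPKM in GFP+ cells and 51.6 FPKM in GFP- cells. *Suz12*, the other shared subunit, was at 10.1 FPKM in GFP+ cells and 9.43 FPKM in GFP- cells, a difference of 0.09. Of the chromobox genes of Polycomb complex 1, *Cbx7* was at 19.3 FPKM in GFP+ cells and 17.2 FPKM in GFP- cells, *Cbx2* at 9.71 FPKM in GFP+ cells and 11.5 FPKM in GFP- cells and *Cbx8* at 11.4 FPKM in GFP+ cells and 12.5 FPKM in GFP- cells. The row of *Cbx6* is joined with *Npcd* and *Nptxr*, 2 other genes, so its 12.4 FPKM in GFP+ cells and 7.24 FPKM in GFP- cells cannot be assigned to *Cbx6* alone.

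*Ezh2* is a textbook target of the E2F factors that turn on genes of the cell cycle, so promoters were searched for 2 E2F motifs (TTTCCCGC and TTTGGCGC), the CHR element of cell-cycle genes (TTTGAA) and 2 E-boxes (CACGTG and CAGCTG). The windows ran from 250 bases before to 50 bases after the start in RefSeq (GRCm38.p6), on both strands, and 111 of the 137 members had one. Either E2F motif was in 8 of 111 members (7.21%) and in 1.56% of all 32851 promoters, a set that holds several starts per gene and non-coding genes. *Ezh2*, *Cbx3*, *Brd7*, *Sirt4*, *Suv420h2* and *Smarcd1* were the 6 holders below 0 in log2 difference as deposited, and *Suz12* and *Arid1a* the 2 above 0. Under the median and total scalings *Suv420h2* and *Smarcd1* came to lie above 0 too. Of all 124 members compared, 49 were below 0 as deposited. The CHR element was in 12.6% of members and 17.9% of all promoters. CACGTG was in 9.01% of members and 7.15% of all promoters, and CAGCTG in 17.1% of members and 16.3% of all promoters. A match is a description of the letters and not a bound site. The windows of the 3 lowest holders follow, with that of *Suz12*, which differed little, and that of *Kdm7a*, the coding gene of highest difference with an entry, which holds none of the 5 motifs. Capitals mark the motifs: E2F motifs in the first 3, and in *Suz12* an E2F motif followed by a CHR element on the other strand. Counted from the start of transcription, the motif spans positions 4 to 11 in *Ezh2*, -168 to -161 in *Cbx3* and -28 to -21 in *Brd7*.
Ezh2 (chr6:47594981-47595280, minus strand): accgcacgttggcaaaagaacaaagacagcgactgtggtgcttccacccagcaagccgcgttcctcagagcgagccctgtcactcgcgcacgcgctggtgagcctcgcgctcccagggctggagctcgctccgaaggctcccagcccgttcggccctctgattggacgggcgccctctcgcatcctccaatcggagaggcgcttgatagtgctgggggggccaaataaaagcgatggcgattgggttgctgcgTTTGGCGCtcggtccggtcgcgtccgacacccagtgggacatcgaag
Cbx3 (chr6:51470366-51470665, plus strand): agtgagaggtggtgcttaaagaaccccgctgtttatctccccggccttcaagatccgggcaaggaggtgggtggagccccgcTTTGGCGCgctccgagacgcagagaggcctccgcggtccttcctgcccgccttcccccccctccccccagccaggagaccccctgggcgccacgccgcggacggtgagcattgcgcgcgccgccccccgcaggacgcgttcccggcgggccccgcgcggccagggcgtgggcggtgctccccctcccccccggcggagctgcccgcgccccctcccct
Brd7 (chr8:88362123-88362422, minus strand): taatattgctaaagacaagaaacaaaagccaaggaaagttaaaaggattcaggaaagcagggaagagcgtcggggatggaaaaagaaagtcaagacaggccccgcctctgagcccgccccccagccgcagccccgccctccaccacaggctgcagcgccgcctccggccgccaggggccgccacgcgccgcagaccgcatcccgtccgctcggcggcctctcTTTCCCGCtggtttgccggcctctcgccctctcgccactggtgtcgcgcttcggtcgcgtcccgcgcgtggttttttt
Suz12 (chr11:79992856-79993155, plus strand): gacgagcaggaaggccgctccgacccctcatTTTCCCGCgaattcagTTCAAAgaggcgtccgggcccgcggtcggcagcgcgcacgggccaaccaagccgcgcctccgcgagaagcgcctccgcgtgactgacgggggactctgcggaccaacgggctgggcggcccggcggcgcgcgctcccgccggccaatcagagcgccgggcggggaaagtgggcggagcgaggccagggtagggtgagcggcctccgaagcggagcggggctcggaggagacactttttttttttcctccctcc
Kdm7a (chr6:39206724-39207023, minus strand): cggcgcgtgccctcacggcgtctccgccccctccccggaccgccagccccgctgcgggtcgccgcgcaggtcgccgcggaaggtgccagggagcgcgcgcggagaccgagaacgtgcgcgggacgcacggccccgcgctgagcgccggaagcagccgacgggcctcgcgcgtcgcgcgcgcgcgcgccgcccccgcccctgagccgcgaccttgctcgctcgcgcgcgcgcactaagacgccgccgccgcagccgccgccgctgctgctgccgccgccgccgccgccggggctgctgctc

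Histone demethylases remove the methyl marks. Of the 16 that reached 1 FPKM, 12 were above 0 (15 and 16 under the median and total scalings, 10 relative to length), 7 were 2-fold higher (20.1% of all genes) and 0 were 2-fold lower (23.1%), with a summed 291 FPKM in GFP+ cells and 144 FPKM in GFP- cells. The median difference was 0.87, and 0.24 against genes of like length, by which 4 of 16 stayed 2-fold higher, where 18.8% of all genes were: *Kdm7a*, *Kdm6a*, *Kdm4c* and *Kdm4b*. *Kdm6a* (UTX), which removes methyl groups from H3K27, was at 31.0 FPKM in GFP+ cells and 8.18 FPKM in GFP- cells. *Kdm4b*, which acts on H3K9 and H3K36, was at 41.7 FPKM in GFP+ cells and 14.6 FPKM in GFP- cells. *Kdm4c*, of the same activity, was at 17.4 FPKM in GFP+ cells and 5.42 FPKM in GFP- cells. Their close relative *Kdm4a*, of like length, was at 5.05 FPKM in GFP+ cells and 7.08 FPKM in GFP- cells. The H3K4 demethylases *Kdm5a*, *Kdm5b* and *Kdm5c* were each 2-fold higher as deposited and below that for their length. *Kdm5b* was the most abundant of them, at 31.0 FPKM in GFP+ cells and 14.2 FPKM in GFP- cells. *Kdm3a*, an H3K9 demethylase, was the most abundant of all in this class, at 52.6 FPKM in GFP+ cells and 29.5 FPKM in GFP- cells. *Kdm1a* (LSD1), which works with the corepressors of endocrine and neural cells, was at 31.2 FPKM in GFP+ cells and 21.6 FPKM in GFP- cells. The 4 below 0 lay between -0.47 (*Kdm8*) and -0.06 (*Kdm2b*). *Kdm6b* was below 1 FPKM in GFP- cells and was let in by its GFP+ level, which fixes its sign. Of all genes, 46.2% were above 0 as deposited, 60.1% and 63.2% under the median and total scalings and 50.1% relative to length.

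DNA methylation is copied at replication by *Dnmt1* and set anew by *Dnmt3a* and *Dnmt3b*. *Dnmt1* was at 25.5 FPKM in GFP+ cells and 38.9 FPKM in GFP- cells, a difference of -0.59 that was -1.11 for its transcript of 5367 bases. *Dnmt3a* was at 11.99 FPKM in GFP+ cells and 2.45 FPKM in GFP- cells, a difference of 1.91 and of 0.91 for its length. The balance of the 2 enzymes therefore differed, with *Dnmt3a* at 0.470 times *Dnmt1* in GFP+ and at 0.0630 times in GFP-. *Dnmt3b* was low in both, at 1.37 FPKM in GFP+ cells and 1.92 FPKM in GFP- cells. The Tet enzymes oxidise methylated cytosine. *Tet2* was at 4.29 FPKM in GFP+ cells and 0.497 FPKM in GFP- cells, and *Tet3* at 4.82 FPKM in GFP+ cells and 1.56 FPKM in GFP- cells, while *Tet1* stayed below 0.1 FPKM in both.

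Arginine methyltransferases were the group with the most genes 2-fold lower as deposited, 4 of the 7 that reached 1 FPKM (23.1% of all genes), or 3 with the median scaling, 2 with the total scaling and 3 relative to length. Their summed level was 167 FPKM in GFP+ cells and 390 FPKM in GFP- cells. *Prmt1*, which makes most asymmetric dimethylarginine, was at 57.2 FPKM in GFP+ cells and 133 FPKM in GFP- cells. *Prmt5*, the main enzyme of symmetric dimethylarginine and a partner of the splicing machinery, was at 25.7 FPKM in GFP+ cells and 83.8 FPKM in GFP- cells, a difference of -1.67 and of -1.52 for its length. *Prmt7*, which adds single methyl groups (chromosome 8, 106211054 to 106251694, plus strand), was at 28.0 FPKM in GFP+ cells and 110.3 FPKM in GFP- cells. Its difference was the lowest of all 124 members in both measures, at -1.94 and -1.90. *Prmt3*, an enzyme of ribosomal protein S2, was at 10.4 FPKM in GFP+ cells and 31.8 FPKM in GFP- cells. *Prmt6* and *Prmt10* differed less. *Prmt6* was at 13.9 FPKM in GFP+ cells and 15.7 FPKM in GFP- cells, and *Prmt10* at 7.99 FPKM in GFP+ cells and 10.9 FPKM in GFP- cells. *Prmt2*, described above, was the single member above 0 as deposited (1 of 7 relative to length, 3 of 7 under the median and total scalings).

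Of the 9 CHD remodellers that reached 1 FPKM, 8 were above 0 (all 9 under the median and total scalings, 6 relative to length) and 6 were 2-fold higher, with a median of 1.34 that was 0.45 against genes of like length. Of all genes, 46.2% were above 0 as deposited (60.1% and 63.2% under those scalings, 50.1% relative to length) and 20.1% were 2-fold higher. *Chd3*, *Chd6* and *Chd9* were below 1 FPKM in GFP- cells and were let in by their GFP+ level, which fixes their sign. Beside *Chd3* and *Chd6*, *Chd4*, the other main NuRD ATPase, was at 19.5 FPKM in GFP+ cells and 5.40 FPKM in GFP- cells, and *Chd7*, the gene mutated in CHARGE syndrome, at 7.38 FPKM in GFP+ cells and 2.04 FPKM in GFP- cells. *Chd1* was at 12.2 FPKM in GFP+ cells and 4.21 FPKM in GFP- cells. *Chd1l*, a remodeller of DNA repair with the shortest transcript of the group, was the 1 below 0, at 18.2 FPKM in GFP+ cells and 23.1 FPKM in GFP- cells. *Chd2* shares its row with *1810026B05Rik*.

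The SWI/SNF complexes slide and evict nucleosomes around an ATPase, *Smarca4* (BRG1) or *Smarca2* (BRM). Of 12 Smarc genes of at least 1 FPKM, 6 were above and 6 below 0 (9 and 3 under the median and total scalings, 6 and 6 relative to length), with 4 past the 2-fold size as higher and 2 as lower. Of all genes, 46.2% were above 0, 20.1% were 2-fold higher and 23.1% 2-fold lower as deposited. *Smarca1* was below 1 FPKM in GFP- cells and was let in by its GFP+ level, which fixes its sign. *Smarca4* was at 45.3 FPKM in GFP+ cells and 24.4 FPKM in GFP- cells, and *Smarca2* at 20.1 FPKM in GFP+ cells and 4.88 FPKM in GFP- cells. *Smarcc2* (BAF170) was at 58.5 FPKM in GFP+ cells and 21.6 FPKM in GFP- cells, while its sister *Smarcc1* (BAF155) was at 8.45 FPKM in GFP+ cells and 10.9 FPKM in GFP- cells. *Smarcd2* (BAF60B), the most abundant member of all in GFP-, was at 60.1 FPKM in GFP+ cells and 177 FPKM in GFP- cells, a difference of -1.54 and of -1.43 for its length. The core subunit *Smarcb1* (SNF5) was at 51.8 FPKM in GFP+ cells and 131 FPKM in GFP- cells, of which the length-relative difference left -0.56. Of the ISWI motors, *Smarca5* was at 15.8 FPKM in GFP+ cells and 21.5 FPKM in GFP- cells. Its relative *Smarca1* was at 1.41 FPKM in GFP+ cells and 0.0293 FPKM in GFP- cells, a ratio of 48.0 that rests on about 6.92 fragments in GFP- and reads as 1.22 on the log2(FPKM + 1) scale. The row of the pseudogene *Smarca5-ps*, at 2.97 FPKM in GFP+ cells and 2.94 FPKM in GFP- cells, may share reads with *Smarca5*.

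All 8 ARID genes that reached 1 FPKM were above 0, and 7 were so against genes of like length too. Of all genes, 46.2% were above 0 as deposited and 50.1% relative to length. *Arid3a*, at 0.598 FPKM in GFP- cells, was let in by its GFP+ level, which fixes its sign. *Arid1a*, the DNA-binding subunit of the BAF complex, was at 6.27 FPKM in GFP+ cells and 1.99 FPKM in GFP- cells, its relative *Arid1b* at 6.55 FPKM in GFP+ cells and 2.93 FPKM in GFP- cells, and *Arid2* of the PBAF complex at 10.1 FPKM in GFP+ cells and 3.81 FPKM in GFP- cells. *Arid4b*, of the Sin3 deacetylase complex, was at 11.8 FPKM in GFP+ cells and 3.29 FPKM in GFP- cells. *Arid3b* was the single one 2-fold higher for its length, at 5.66 FPKM in GFP+ cells and 1.48 FPKM in GFP- cells. The listed locus of *Arid3a* is a merged region.

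**Figure D3:**
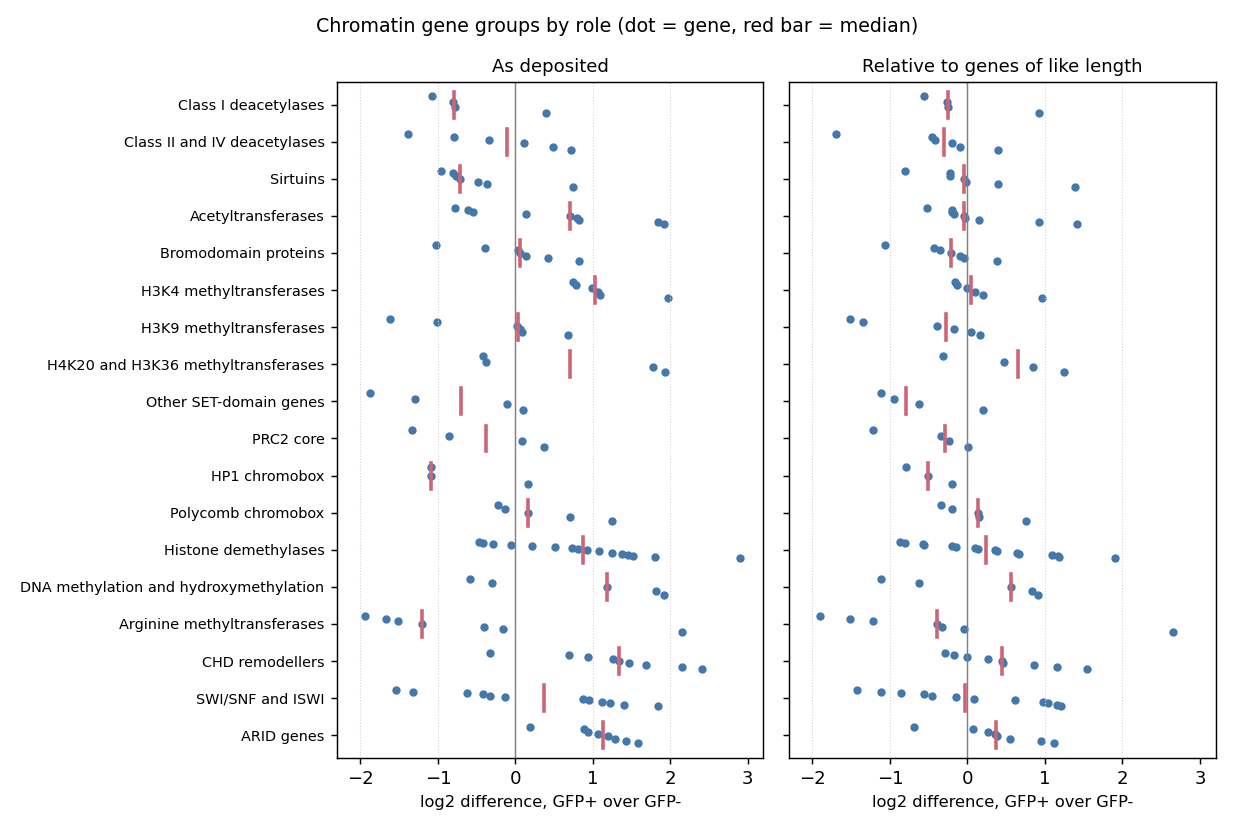
Dots are genes that reached 1 FPKM in either library, in rows by role, and red bars are medians. The horizontal axes give the log2 difference of GFP+ over GFP- as deposited (left) and against genes of like transcript length (right). On the left panel CHD, ARID, H3K4 methyltransferase and demethylase genes lie right of 0, except *Chd1l* and 4 demethylases, and arginine methyltransferases lie left of it, except *Prmt2*. On the right panel the CHD, ARID, H3K4 methyltransferase, demethylase and arginine methyltransferase medians lie closer to 0, while the other SET-domain median, for one, lies further below it.

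Of the 18 role groups, 11 had a median above 0 as deposited and 7 against genes of like length. Those 7 were above 0 on both scales: the DNA methylation genes (medians 1.19 and 0.56), the H4K20 and H3K36 enzymes (0.70 and 0.66), the CHD remodellers (1.34 and 0.45), the ARID genes (1.13 and 0.37), the demethylases (0.87 and 0.24), the Polycomb chromobox genes (0.16 and 0.14) and the H3K4 enzymes (1.03 and 0.04). The arginine methyltransferases (-1.20 and -0.39), HP1 genes (-1.08 and -0.50), other SET-domain genes (-0.71 and -0.79), class I deacetylases (-0.79 and -0.26), sirtuins (-0.72 and -0.05), PRC2 core genes (-0.38 and -0.29) and class II and IV deacetylases (-0.11 and -0.30) were below 0 on both. With the median ratio set to 0, the medians of the PRC2 core (0.09) and of the class II and IV enzymes (0.31) came to lie above 0. No group was uniform in its members by the length-relative measure except the 3 HP1 genes, which were all below 0.

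Related genes that can stand in for one another within a complex are compared within each library, where the library's scale cancels. The trend with transcript length does not cancel where the 2 genes differ in length. The 17 pairs were picked and ordered after their values had been seen, so that their common direction carries no information. The ratio of *Smarcc2* to *Smarcc1* was 6.92 in GFP+ and 1.98 in GFP-. That of *Smarca2* to *Smarca4*, with transcripts of 5862 and 6376 bases, was 0.444 in GFP+ and 0.200 in GFP-. *Smarca4* thus remained the more abundant ATPase in both. *Kdm4b* to *Kdm4a* was 8.26 in GFP+ and 2.06 in GFP-, *Suv420h1* to *Suv420h2* (6130 and 2774 bases) was 0.611 in GFP+ and 0.106 in GFP-, and *Kat2b* to *Kat2a* (4653 and 3046 bases) was 0.394 in GFP+ and 0.0435 in GFP-. In length-relative difference, *Smarcc2* stood above *Smarcc1* by 2.00, *Smarca2* above *Smarca4* by 1.13 and *Kdm4b* above *Kdm4a* by 1.96. By that measure *Suv420h1* stood above *Suv420h2* by 1.56, *Kat2b* above *Kat2a* by 1.92 and *Ezh1* above *Ezh2* by 1.23. The order of the 2 genes was opposite in the 2 libraries for *Ezh1* and *Ezh2*, and for *Kdm4c* and *Kdm4a* (3.44 in GFP+ and 0.765 in GFP-). The actin-like subunits of the BAF complex gave one of the widest gaps. *Actl6b* (BAF53B), known from neurons, was at 3.79 FPKM in GFP+ cells and 0.221 FPKM in GFP- cells, and *Actl6a* (BAF53A), known from progenitors, at 48.6 FPKM in GFP+ cells and 119 FPKM in GFP- cells, a ratio of 0.0781 in GFP+ and 0.00186 in GFP-. *Actl6a* remained the main form in GFP+.

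**Figure D4:**
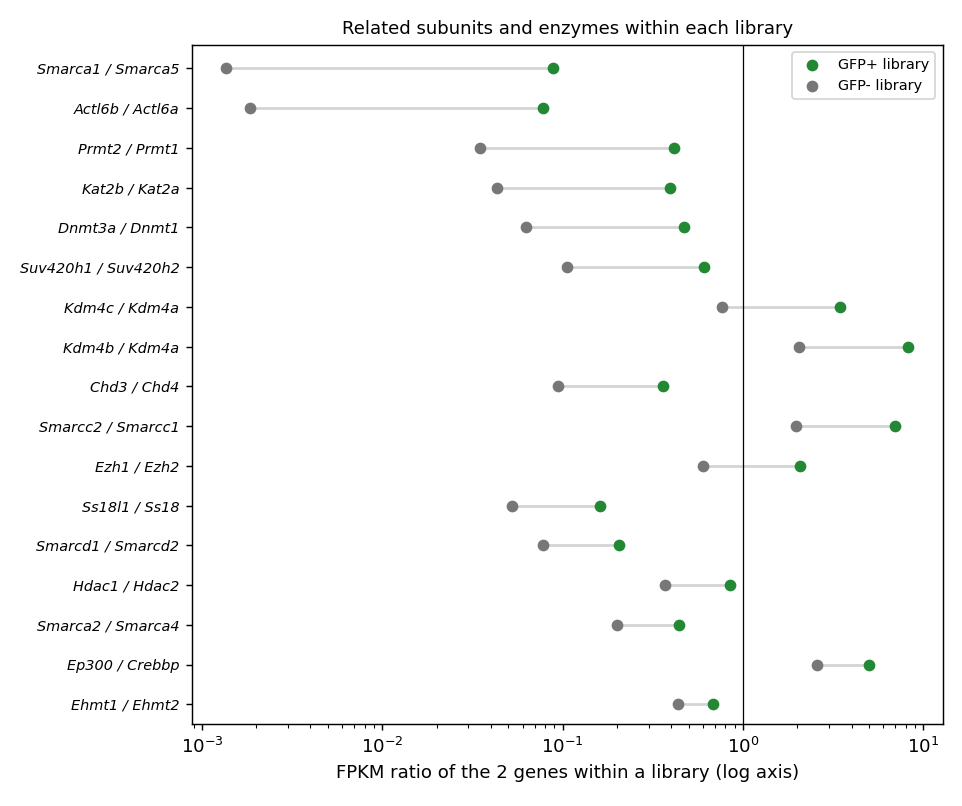
Each row is a pair of related genes, and the horizontal log axis gives the FPKM of the first divided by that of the second within a library. Green dots are GFP+, grey dots GFP-, and the vertical line marks equal levels. The pairs and the order within each were chosen after the values were known, and the ratios are not adjusted for transcript length. Ezh1 / Ezh2 and Kdm4c / Kdm4a lie on opposite sides of the line in the 2 libraries.

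The enzymes work in complexes with other proteins, and 85 partner genes outside the 137 were measured, 79 of them at 1 FPKM or more. Of these, 15 were 2-fold higher and 19 lower, 37 were above 0 (47 and 51 under the median and total scalings, 30 relative to length) and the median was -0.0041, or -0.23 against genes of like length. Of all genes, 46.2% were above 0, 20.1% were 2-fold higher and 23.1% 2-fold lower as deposited. The NuRD partners were below 0 in 8 of 8 as deposited, with 3 at least 2-fold lower (1 under the median and total scalings, 2 relative to length). At least 2-fold lower were 12.8% and 10.7% of all genes under those scalings and 14.5% relative to length. The histone-binding *Rbbp4* was at 50.6 FPKM in GFP+ cells and 134 FPKM in GFP- cells, and the methyl-DNA reader *Mbd2* at 4.76 FPKM in GFP+ cells and 17.9 FPKM in GFP- cells. Of the 9 listed, *Gatad2b* did not reach 1 FPKM, and among the members of the same complex *Chd3*, *Chd4* and *Hdac1* were above 0 and *Hdac2* below 0. With one total, 1 of the 8, *Mta2*, came to lie above 0.

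Chromatin genes tied to DNA replication were below 0 in 7 of 7 as deposited, with 4 past the 4-fold size, or 3 with the median scaling, 2 with the total scaling and 2 relative to length. As deposited, 6382 of all 11868 genes were below 0. At least 4-fold lower were 4.59% of all genes as deposited, 1.55% and 1.12% under those scalings and 1.54% relative to length. The histone chaperone *Asf1b* was at 11.0 FPKM in GFP+ cells and 72.4 FPKM in GFP- cells, the chromatin assembly factor *Chaf1b* at 11.3 FPKM in GFP+ cells and 68.9 FPKM in GFP- cells, and *Uhrf1*, which brings *Dnmt1* to new DNA, at 15.6 FPKM in GFP+ cells and 65.6 FPKM in GFP- cells. *Hells* was the closest to 0 at -0.52, and lay above 0 with one total (0.07). Of the 20 cell-cycle genes given above, 19 were lower in the same library, and so were *Ezh2*, *Dnmt1*, *Suv39h1* and *Prmt5* among the members (*Dnmt1* lay above 0 with one total, at 0.01). The part that cells in cycle have in these differences was not tested.

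Among the corepressor genes, *Insm1*, a zinc-finger factor of endocrine cells that recruits *Kdm1a*, was at 15.5 FPKM in GFP+ cells and 1.34 FPKM in GFP- cells, a difference of 2.82 in the list of 12, of which 7 of the 11 that reached 1 FPKM were above 0 (8 under the median and total scalings, 3 relative to length). *Sin3b* was the lowest, at 69.0 FPKM in GFP+ cells and 167 FPKM in GFP- cells. *Gfi1* was below 1 FPKM in GFP+ cells and was let in by its GFP- level, which fixes its sign. *Rest*, the repressor of neuronal genes, was at 3.21 FPKM in GFP+ cells and 5.70 FPKM in GFP- cells. Of the accessory subunits of Polycomb complex 2, 4 of 4 were above 0 (3 relative to length), with *Phf1* at 11.8 FPKM in GFP+ cells and 2.06 FPKM in GFP- cells and *Jarid2* at 29.2 FPKM in GFP+ cells and 6.30 FPKM in GFP- cells, each over 4-fold. Of all genes, 46.2% were above 0 and 7.09% at least 4-fold higher as deposited, and 50.1% were above 0 relative to length. In Polycomb complex 1, 8 of 13 were above 0 (11 and 12 under the median and total scalings, 8 relative to length), and *Bmi1* was the 1 past the 2-fold size as deposited (3 were relative to length), at 21.4 FPKM in GFP+ cells and 7.51 FPKM in GFP- cells. *Phc3* and *Rybp* were below 1 FPKM in GFP- cells and were let in by their GFP+ level, which fixes their sign.

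Of the shared subunits of the H3K4 methyltransferases, leaving *Kdm6a* aside, 5 of 6 were below 0 as deposited and relative to length, 3 with the median ratio set to 0 and 2 with one total, *Dpy30* being at 62.6 FPKM in GFP+ cells and 244 FPKM in GFP- cells and *Wdr5* at 17.4 FPKM in GFP+ cells and 42.4 FPKM in GFP- cells. Below 0 were 6382 of all 11868 genes as deposited, 4741 with the median ratio set to 0 and 4368 with one total. All 5 of the other histone methyltransferases were above 0 (4 relative to length), led by *Dot1l*, the H3K79 enzyme, at 11.6 FPKM in GFP+ cells and 2.42 FPKM in GFP- cells. *Ash1l*, at 0.712 FPKM in GFP- cells, was let in by its GFP+ level, which fixes its sign. Of all genes, 46.2% were above 0 as deposited and 50.1% relative to length. Of 8 INO80, SRCAP and ISWI partners, 6 were above 0 (2 relative to length), while the ATPase *Ruvbl2* was at 37.6 FPKM in GFP+ cells and 194 FPKM in GFP- cells. *Ino80*, at 0.628 FPKM in GFP- cells, was let in by its GFP+ level, which fixes its sign. The progenitor-type BAF genes were below 0 in 3 of 4 (2 under the median and total scalings and relative to length). Among the neuron-type genes *Actl6b* was let in by its GFP+ level, which fixes its sign. *Ss18l1* had a log2 difference of 1.20, at 4.90 FPKM in GFP+ cells and 1.58 FPKM in GFP- cells, while *Dpf1* and *Dpf3* did not reach 1 FPKM. Of 6 other BAF genes 4 were below 0. Of 5 methyl-DNA readers and variant chaperones, *Atrx* was the 1 above 0 as deposited (4 of 5 were under the median and total scalings, 3 relative to length), at 8.73 FPKM in GFP+ cells and 1.73 FPKM in GFP- cells.

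The remaining 13 members were below 1 FPKM in both libraries and entered no count of differences. *Prmt8* and *Kdm5d* were listed at 0 in both. *Smarcd3*, *Arid3c*, *Arid5a*, *Dnmt3l*, *Dnmt3aos*, *Kdm4d*, *Setd1a*, *Setd1b*, *Tet1*, *Hdac9* and *Chd5* made up the rest, the highest of them being *Arid5a* at 0.864 FPKM in GFP+ cells and 0.550 FPKM in GFP- cells. *Chd5*, known from neurons, was at 0.249 FPKM in GFP+ cells and 0.0103 FPKM in GFP- cells. Another 13 members (*Kmt2a* to *Kmt2d*, *Chd3*, *Chd6*, *Chd9*, *Tet2*, *Crebbp*, *Kat6a*, *Kdm6b*, *Arid3a* and *Smarca1*) were below 1 FPKM in GFP- alone, so that the filter fixed the sign of their difference. The files give no read counts. On an approximate scale read from steps in the low values, all compared members but *Smarca1* had at least 50 fragments in both libraries, with a median of 3031 in GFP+ and 2179 in GFP-.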

How the data were processed

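Polyadenylated RNA of 1 GFP+ and 1 GFP- library was measured. The authors deposited FPKM per gene with confidence bounds, per the file headers. FastQC, TopHat2 0.7 (as written, possibly not the aligner's own version), Cufflinks, Cuffdiff and mm10 are named in the submitters' processing notes. Gene models, library scaling, strand and depth are not stated there. FPKM was summed per symbol and compared as log2((FPKM + 1) in GFP+ / (FPKM + 1) in GFP-) over the 11868 symbols that reach 1 FPKM in either library, where 4-fold and 2-fold mean differences of 2 and 1. With 1 library per fraction there is no test. Transcript lengths are those of the transcript with the longest coding sequence in GENCODE M21, on the same assembly, and all 137 members matched, 5 through an older symbol. Tested genes of 9147 bases and over share 1 length window. Locus starts, counted from 0 in the files, were shifted to 1. Listed loci are merged regions for 26 members. Of 5 joined rows, 2 hold other genes. Low FPKM came in steps of about 59.3 (GFP+) and 59.2 (GFP-) fragments per FPKM and kilobase; 68.1% and 73.2% of values under 4.5 fragments lay within 0.1 of a whole number. This unit was chosen from the same values and has no independent check, and it covers counting error only. Computation used Python 3.11.15, pandas 2.3.3, numpy 2.4.6 and scipy 1.17.1, and the calculation was tested on simulated data. Members, role groups and lists were chosen with earlier results of these data known; gene pairs and the length-relative measure were chosen after seeing the values. Named in each group were up to 4 members of largest absolute difference, the most abundant, those against their group median, members past 4-fold and the 10 highest by FPKM; others were named to complete a group. Some members enter the counts and are not reported by name here.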

Additional observations from a re-analysis of the deposited data

How the results depend on the processing

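The 5 members at least 4-fold higher in GFP+ became 15 with a pseudocount of 0.1 and 0 with one of 5. They became 3 when 1 FPKM was required in both libraries, 16 with the median ratio set to 0, 20 with one total and 2 relative to genes of like length. The 0 members 4-fold lower became 1 with a pseudocount of 0.1. The 35 members 2-fold higher became 15 with a pseudocount of 5, 55 with the median ratio set to 0, 59 with one total and 15 relative to length. The 16 members 2-fold lower became 6 with the median ratio set to 0 and 4 with one total. The median difference of 0.17 changed sign relative to length (-0.048), and lay between 0.09 and 0.75 under the other alternatives. The causes of these changes were not tested beyond what each construction sets. The counts stayed within 1.5 times under the other alternatives run: no filter, at least 5 FPKM, joined rows left out and status OK alone. The length-relative alternative was chosen after seeing the data. No paired analysis was possible because each fraction has 1 library, and for the same reason no library could be left out. Depth limits *Smarca1* most, at about 6.92 fragments in GFP-.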
